A study of Homo sapiens with 24 samples.

Results

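The eIF4 translation initiation factors were examined as 10 genes, whose splicing was read from every row of the deposited tables that lay on the strand and within the GRCh37 span of one of them. These were 2660 of the 1823643 rows kept, and they covered 149 introns of 1 reference transcript per gene. The study measured splicing by poly(A) RNA sequencing in HCT116, a human colorectal cancer cell line, in which lentiviral WT or Y36C PHF5A had been expressed under blasticidin selection, and it asked how the Y36C substitution alters the response to E7107, a pladienolide derivative that binds the SF3b complex. The 24 samples formed 4 groups of 6, which are called WT DMSO and WT E7107 for cells with WT PHF5A and Y36C DMSO and Y36C E7107 for cells with the substitution. All of them kept the endogenous PHF5A gene beside the introduced one, the cell populations are not described as single clones, and the labels do not say that samples of a group were separate cultures, so p-values may measure technical spread. The labels give no dose, and neither the PHF5A allele nor the identity of the line can be checked in tables of percentages.

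The eIF4 proteins bring the capped end of an mRNA to the small ribosomal subunit. EIF4E binds the cap, EIF4G1 is the scaffold that holds it, and EIF4A1 is the helicase that unwinds the leader, with EIF4B and EIF4H as its activators. SF3b is the part of the U2 particle that recognises the branch point during the first steps of intron removal, and PHF5A is one of its subunits.

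Each row gives the percent spliced in (PSI) of a junction, which is its share of all reads at a splice site. A boundary row holds the reads that run unspliced from exon into intron and is used here as the measure of retention, and it was available at 287 exon-intron boundaries of the 10 genes. A skipping row holds reads that join exons across at least 1 reference exon, and 370 such rows were listed. A junction can be listed at its 5′ site and again at its 3′ site, so counts of skipping rows are not counts of separate events. PSI is a proportion, so it says nothing about how much mRNA of a gene was present. PSI was turned into natural-log odds and groups were compared by limma. Benjamini-Hochberg adjustment ran over all rows of the whole table that entered the fit, and for gene means over all genes fitted. An adjusted p of at most 0.05 was taken as a call. The number of splice sites with reads was lower in WT E7107, at 281164 to 283548 per sample, than in WT DMSO at 337517 to 340081, Y36C DMSO at 336249 to 338547 and Y36C E7107 at 328458 to 331604. How reads that fit more than 1 place were handled is not given in the sources used here, so reads of the near relatives EIF4A1 and EIF4A2 and of their processed copies may be split. The files hold no read counts, so the depth behind a single PSI is unknown and no interval can be given for it.

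A selection of splice sites is shown from 3 introns whose responses differed in size. EIF4A2 intron 2 (chr3:186502267-186502352, 86 bases) had the largest change of all introns of the 10 genes in WT cells, EIF4A1 intron 8 (chr17:7481025-7481144, 120 bases) also moved in Y36C cells, and EIF4H intron 5 (chr7:73609209-73609498, 290 bases) had the largest change within EIF4H, the gene with the lowest retention under E7107 in WT cells. Sites are written 5′ to 3′ on the plus strand of GRCh37, with 3 exon bases at the end next to the intron, and capitals mark the GT and AG that bound the intron.
EIF4A2 intron 2, 5′ site, chr3:186502264-186502272: gagGTaaga
EIF4A1 intron 8, 5′ site, chr17:7481022-7481030: atgGTgtgt
EIF4A1 intron 8, 3′ site, chr17:7481120-7481147: gctgcatatttgttttctcttccAGcat
EIF4H intron 5, 5′ site, chr7:73609206-73609214: aagGTacgg
EIF4H intron 5, 3′ site, chr7:73609474-73609501: acaaactctgctttttctcccccAGagg
All 149 introns of the 10 genes began with GT and ended with AG, so none differed from the others in these terminal bases.

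In WT PHF5A cells, E7107 raised intron retention in all 10 eIF4 genes. In log odds over the introns of the reference transcripts, retention rose most in the helicases EIF4A1 and EIF4A2 and in the cap-binding protein EIF4E, and least in the activator EIF4H and the scaffold EIF4G3. The upper order depended on the introns used, since EIF4A3 rose by 2.52 on its MANE Select transcript, against 2.46 in EIF4E, and EIF4A1 by 1.20 over all GENCODE introns. Of the 287 boundaries, 233 could be tested, 226 of these rose and 0 fell. Over all genes 61.6% of tested boundaries rose and 4.49% fell, and of all gene means 72.7% rose and 7.93% fell. The median change over the tested boundaries of the 10 genes was 12.9 percentage points, beside 8.84 over all tested boundaries. At an unadjusted p of at most 0.05 limma also found 0 boundaries lower, and a fit with replicate number as a block and a fit on PSI itself found 0 as well. Of the 54 boundaries not tested, 51 lay in EIF4G3, where most samples had a PSI of 0, and 2 boundaries of EIF4E2 entered the test although every WT DMSO sample was at 0.

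EIF4A1, the main helicase of the complex, had a mean boundary PSI per gene of 1.13 to 1.34% in the WT DMSO samples (median 1.22%), and of 23.5 to 25.7% under E7107 (median 24.9%). The groups did not overlap, and the log odds rose by 2.72 ± 0.042 (SE, n = 12, limma, adjusted p = 2.28e-14). All 20 of its boundaries rose. Its intron means in WT E7107 ran from 14.5% in intron 10 to 34.8% in intron 9.

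EIF4A2, the second cytoplasmic eIF4A helicase, started from a higher level and reached the highest of the family. The 6 WT DMSO samples lay between 13.7 and 14.4% (median 14.2%), and the 6 WT E7107 samples between 70.7 and 74.8% (median 73.2%). The groups were far apart, with a rise in log odds of 2.72 ± 0.043 (SE, n = 12, limma, adjusted p = 2.66e-14). In intron 2, whose 5′ site is printed above, PSI at both ends together was 11.0 to 15.9% in WT DMSO (median 14.8%) and 89.6 to 92.5% in WT E7107 (median 90.8%). Only the 3′ end of intron 10 missed the threshold among the 20 boundaries of EIF4A2, with 44.4% ± 1.69 against 50.7% ± 1.04 (SD, n = 6 each, limma, adjusted p = 0.0616).

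EIF4A3, the nuclear helicase of the exon junction complex, rose at 22 of 23 tested boundaries. The exception was intron 1 of its reference transcript, a gap of 38 bases at 99.9% in both groups, which holds up the mean of the gene. With that intron in, the mean went from 4.64 to 4.74% (median 4.69%) in WT DMSO to 16.1 to 18.4% (median 17.4%) in WT E7107, a rise of 1.32 ± 0.040 in log odds (SE, n = 12, limma, adjusted p = 5.32e-12). On the MANE Select transcript the rise was 2.52 in log odds. Intron 7 (chr17:78112962-78113468) changed most, from 0.632% ± 0.197 to 24.7% ± 1.60 (SD, n = 6 each).

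The activators of the helicase differed from each other. EIF4B rose at all 28 of its boundaries, from 1.26 to 1.49% (median 1.36%) to 11.8 to 14.8% (median 13.0%), with no overlap and a rise of 1.91 ± 0.052 in log odds (SE, n = 12, limma, adjusted p = 2.08e-12). EIF4H had 0.463 to 0.896% (median 0.524%) in WT DMSO and 1.79 to 2.40% (median 2.21%) in WT E7107. Its groups did not overlap either, but the rise was 0.70 ± 0.059 in log odds (SE, n = 12, limma, adjusted p = 1.36e-07), below the median of 1.05 over the 10431 genes tested. Of its 10 boundaries, 8 rose, and its highest intron mean, in intron 5, was 4.22% ± 0.549 (SD, n = 6).

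The cap-binding proteins both moved. EIF4E went from 0.331 to 0.779% (median 0.675%) to 13.2 to 17.1% (median 15.3%), and all 12 of its boundaries rose. The gap between its groups corresponded to 2.46 ± 0.066 in log odds (SE, n = 12, limma, adjusted p = 1.68e-12). In EIF4E intron 4 (chr4:99808344-99809039, minus strand, 696 bases) the WT DMSO samples lay between 0 and 0.269% (median 0.0465%) and the WT E7107 samples between 17.2 and 29.9% (median 22.0%). EIF4E2, a relative of EIF4E that binds the cap without EIF4G1 and represses translation, rose at all 11 tested boundaries, from 0.462 to 2.08% (median 1.42%) to 11.5 to 15.7% (median 15.2%), which was 2.01 ± 0.12 in log odds (SE, n = 12, limma, adjusted p = 4.21e-09).

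Among the scaffolds, EIF4G1 and EIF4G2 responded along their whole length. EIF4G1 rose at 62 of 62 boundaries, from 0.757 to 1.05% (median 0.928%) to 11.7 to 16.1% (median 14.1%), or by 2.22 ± 0.062 in log odds (SE, n = 12, limma, adjusted p = 2.54e-12). Its intron 16 (chr3:184042136-184042665, 530 bases) reached 25.1% ± 2.84 from 0.279% ± 0.126 (SD, n = 6 each). EIF4G2, which lacks the region that binds EIF4E, rose at 41 of 41 tested boundaries, from 0.699 to 0.811% (median 0.773%) to 9.65 to 11.9% (median 10.8%), or by 2.01 ± 0.047 (SE, n = 12, limma, adjusted p = 5.02e-13). EIF4G3, the longest of the 10 genes with introns of up to 86961 bases, had only 6 boundaries that could be tested, of which 3 rose, in introns 1 and 2. Its gene mean rose by 0.49 ± 0.064 in log odds (SE, n = 12, limma, adjusted p = 1.18e-05), from 3.56 to 4.32% (median 4.04%) to 5.76 to 8.58% (median 6.80%). The median change over its 32 measured introns was only 0.104 percentage points. Its intron 1 (chr1:21502852-21503214, minus strand, 363 bases) was at 46.7 to 64.4% in WT DMSO (median 55.1%) and at 88.4 to 98.8% in WT E7107 (median 92.3%), while intron 9 was at 27.1% in both groups.

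**Figure D1:**
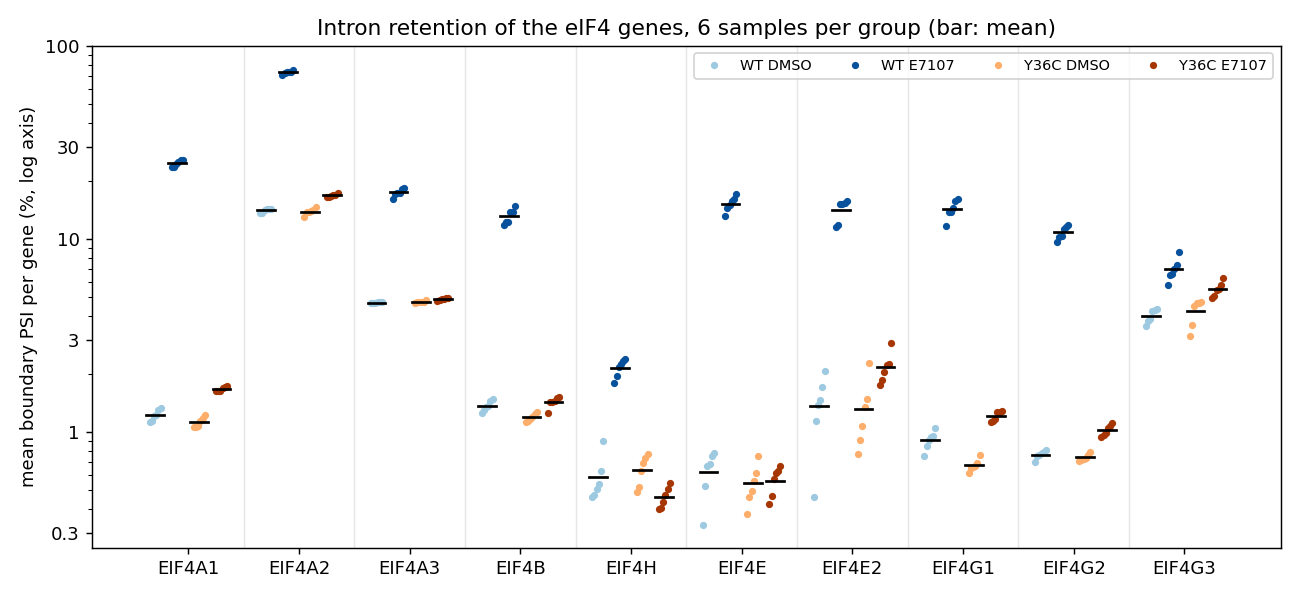
Mean boundary PSI per gene (percent, log axis) for the 10 eIF4 genes, with 1 point per sample, 6 samples per group and a bar at the mean. In WT E7107 the samples of every gene lie above those of WT DMSO, from 1.79% in EIF4H to 74.8% in EIF4A2, whereas the Y36C E7107 samples lie close to their DMSO samples.

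**Figure D2:**
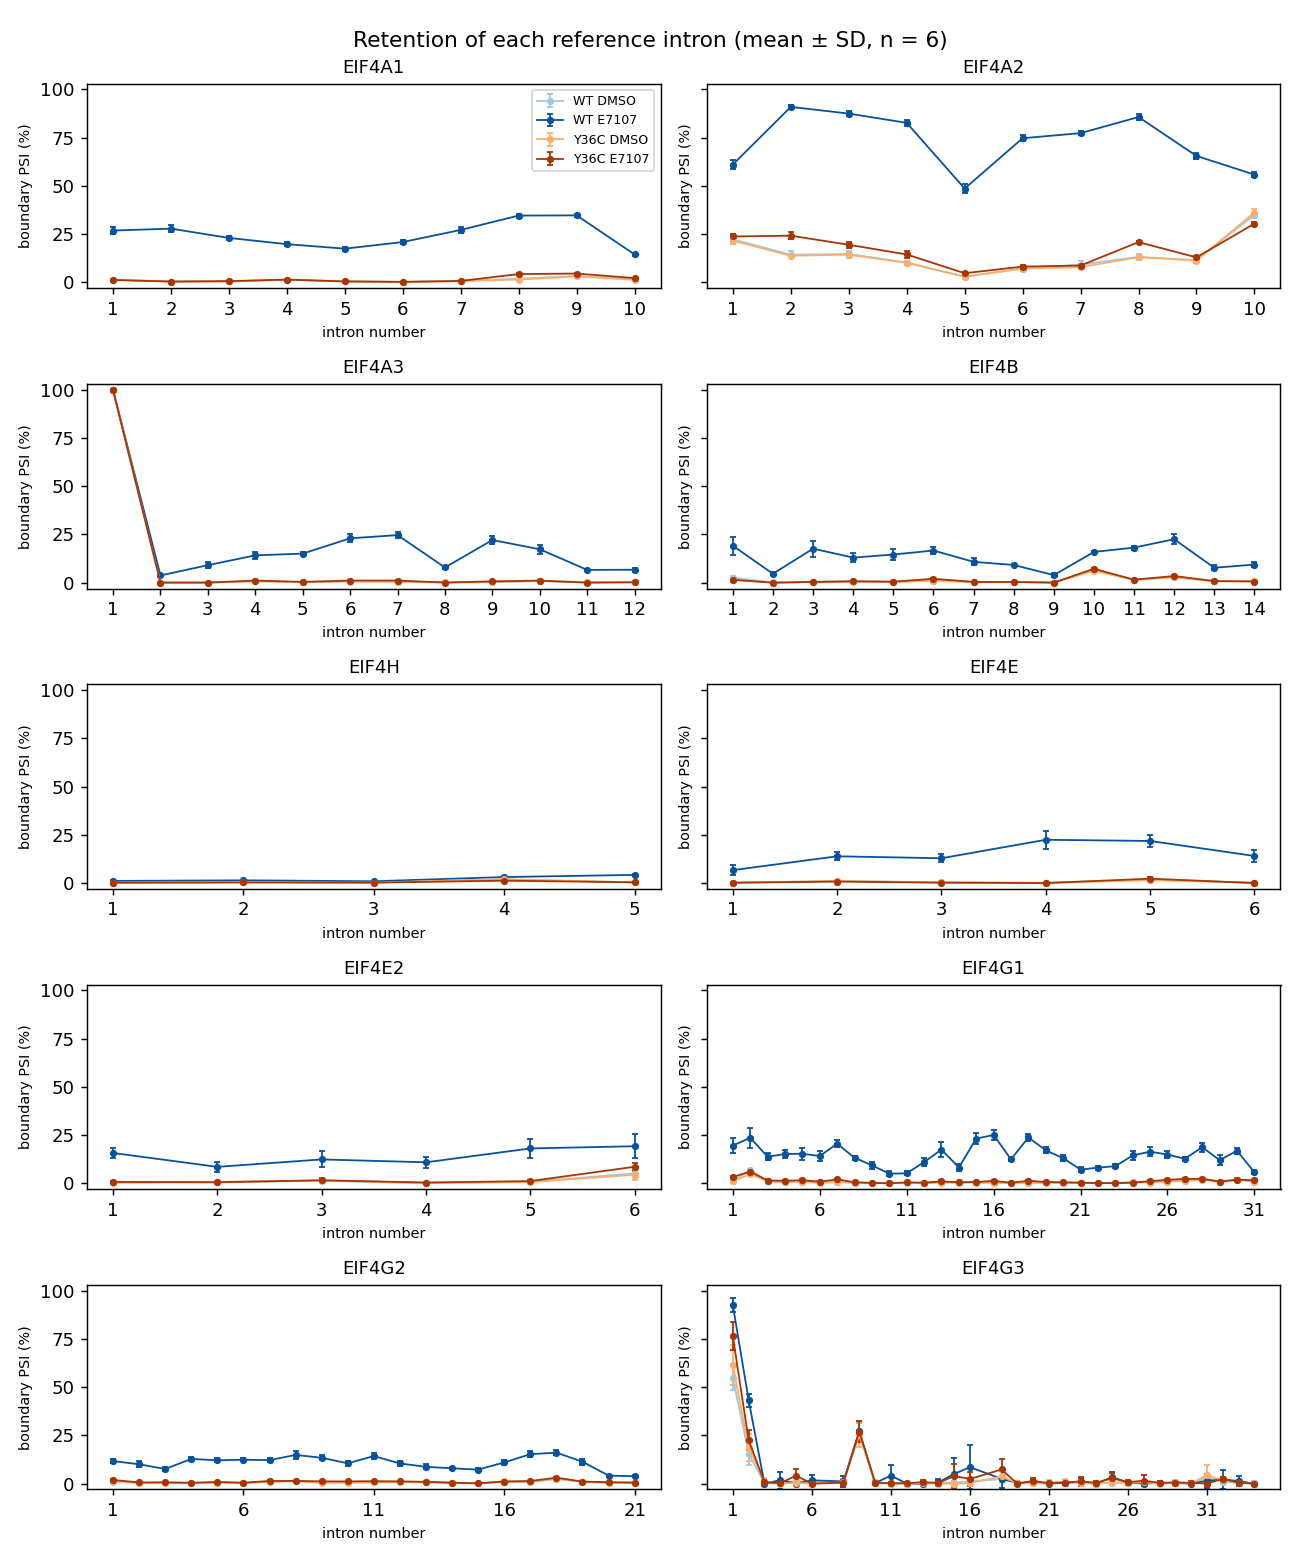
Boundary PSI (percent) of each reference intron by its number, as mean ± SD of 6 samples per group. The lines only join neighbouring introns. WT E7107 stands above the other groups in nearly every intron of EIF4A1, EIF4A2, EIF4B, EIF4E, EIF4E2, EIF4G1 and EIF4G2, and in EIF4G3 only at introns 1 and 2 by a wide margin.

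In Y36C PHF5A cells, the same treatment changed retention in the eIF4 genes far less. The largest gene mean was that of EIF4A2, at 16.8%, and it had been 13.9% in Y36C DMSO. Of 214 tested boundaries, 28 rose and 2 fell, beside 17.9% and 0.572% of all tested boundaries. The median change was 0.27 percentage points over the tested boundaries of the 10 genes and 1.32 over all tested boundaries. EIF4G1 held 13 of the boundaries that rose, EIF4A2 held 7 and EIF4A1 held 4, while EIF4B, EIF4E2, EIF4G2 and EIF4G3 had 1 each. EIF4A3, EIF4H and EIF4E had 0 calls in either direction among 19, 10 and 6 tested boundaries. The block of replicate numbers reduced the boundaries that rose to 12, although the numbers did not pair the samples.

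EIF4A1 went from 1.06 to 1.23% (median 1.11%) in Y36C DMSO to 1.63 to 1.73% (median 1.67%) in Y36C E7107, groups that did not overlap. The gene mean rose by 0.23 ± 0.030 in log odds (SE, n = 12, limma, adjusted p = 4.13e-05), and the boundaries that rose were both ends of intron 8 and the 3′ ends of introns 9 and 10. At the 5′ end of intron 8 the samples went from 1.05 to 1.72% (median 1.41%) to 3.62 to 4.95% (median 4.14%), and at the 3′ end from 1.46 to 1.71% (median 1.58%) to 4.07 to 4.94% (median 4.35%). The log odds rose by 0.82 ± 0.11 and 0.77 ± 0.10 (SE, n = 12 each, limma, adjusted p = 0.000338 and 0.000211). The other introns of EIF4A1 stayed between 0.310 and 1.47% in Y36C E7107.

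EIF4A2 went from 13.0 to 14.6% (median 13.9%) to 16.4 to 17.3% (median 16.8%), a rise of 0.21 ± 0.032 in log odds (SE, n = 12, limma, adjusted p = 0.000144). Intron 2 had the largest change of the gene, from 12.9 to 14.7% (median 13.9%) to 21.9 to 26.1% (median 24.3%), and both of its ends rose. Retention at the 3′ end of intron 10 fell instead, from 46.9% ± 3.10 to 37.9% ± 1.59 (SD, n = 6 each), or by 0.36 ± 0.11 in log odds (SE, n = 12, limma, adjusted p = 0.0338). Those samples ran from 41.8 to 49.8% in Y36C DMSO and from 35.3 to 39.5% in Y36C E7107, so they did not overlap. The other boundary that fell was the 3′ end of EIF4E2 intron 2, from 0.761% ± 0.271 to 0.0896% ± 0.219 (SD, n = 6 each, limma, adjusted p = 0.0186).

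EIF4G1 rose by 0.28 ± 0.032 in log odds (SE, n = 12, limma, adjusted p = 1.23e-05), from 0.614 to 0.759% (median 0.667%) to 1.13 to 1.29% (median 1.22%). Its intron 1 (chr3:184033334-184033550) had the largest change, from 1.04% ± 0.309 to 3.32% ± 0.707 (SD, n = 6 each). EIF4G2 and EIF4G3 rose by 0.15 ± 0.030 and 0.24 ± 0.067 (SE, n = 12 each, limma, adjusted p = 0.0011 and 0.00981), EIF4E2 by 0.34 ± 0.10 (p = 0.0138) and EIF4B by 0.11 ± 0.032 (p = 0.0154). EIF4H fell by 0.12 in log odds (SE 0.041, n = 12, limma, adjusted p = 0.0336), with 0.492 to 0.772% (median 0.659%) before and 0.400 to 0.547% (median 0.455%) after. The largest change of any intron mean in Y36C cells was that of EIF4G3 intron 1, at 61.5% ± 10.5 and 76.4% ± 7.21 (SD, n = 6 each), but neither of its ends was called (limma, adjusted p = 0.0900 and 0.143). EIF4E and EIF4A3 were not called, at 0.01 ± 0.048 and 0.03 ± 0.027 (SE, n = 12 each, limma, adjusted p = 0.839 and 0.458). In all, 7 genes rose and 1 fell, where 50% and 1.14% of all genes did. Only 3 of the 8 calls were left when all annotated introns were used, and 3 when the median over boundaries replaced the mean. EIF4H was also lost on the PSI scale, with the block and on the MANE Select transcript, where its change was -0.0034 and EIF4A3 rose by 0.11 (adjusted p = 0.0177).

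Without the drug, the genotypes were not distinguished in the eIF4 genes. Y36C DMSO against WT DMSO gave 0 calls among 216 boundaries, 60 skipping rows and 10 gene means by limma, and the block and the PSI scale also gave 0. At an unadjusted p of at most 0.05, 1 boundary was higher and 3 were lower, 1 skipping row was higher and 2 were lower, and 2 gene means were lower. Few features passed in the whole table either, with 0.0380% of boundaries higher and 0.0285% lower, 0.0794% and 0.0159% of skipping rows, and 0.518% and 0.451% of genes. The largest difference of a gene mean was that of EIF4G1, at 0.911% ± 0.1 in WT DMSO and 0.675% ± 0.0487 in Y36C DMSO (SD, n = 6 each, limma, adjusted p = 0.118). The WT E7107, Y36C E7107 and genotype comparisons share their DMSO samples, and their values are given side by side for that reason.

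The effect of E7107 on retention differed between genotypes in all 10 genes. Tested as the Y36C minus WT difference in the change of log odds, it was -2.51 ± 0.047 in EIF4A2, -2.48 ± 0.043 in EIF4A1 and -2.45 ± 0.079 in EIF4E, and -0.25 ± 0.091 in EIF4G3 and -0.82 ± 0.067 in EIF4H (SE, n = 24, limma, adjusted p from 1.36e-22 to 0.0169). Of 224 boundaries, 218 had a smaller rise in Y36C cells and 0 a larger one, beside 44.5% and 8.61% of all boundaries. For gene means, 61.0% of all genes were called with a smaller change in Y36C cells and 13.8% with a larger one. At an unadjusted p the count with a larger rise was also 0, and it was 1 without the filter on low values. Of the 211 boundaries tested in both genotypes, 205 rose in WT cells and 27 in Y36C cells. All 27 were among the 205, which is 13.2% of the WT list.

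Exon skipping in the eIF4 genes, measured as PSI, behaved unlike retention. In WT cells 77 of 138 tested skipping rows rose and 4 fell, where 24.1% and 9.42% of all skipping rows did, and 40 of the 138 were at 0 in every WT DMSO sample. In Y36C cells 27 of 100 rose and 0 fell, where 32.8% and 0.769% of all did, and 6 of the 100 were at 0 in every Y36C DMSO sample. At an unadjusted p 1 row was lower in Y36C cells. The interaction found a larger change in Y36C cells at 17 of 88 rows and a smaller one at 21, where 29.1% and 6.66% of all skipping rows were so called. Unspliced reads enter the total of each PSI, so these counts do not compare skipping among spliced reads alone. EIF4A2, with mean retention of 73.0% in WT E7107 and 16.8% in Y36C E7107, held 6 of the 17 rows and 4 of the 21. Of 82 rows tested in both genotypes, 38 rose in WT and 23 in Y36C cells, and 22 did so in both, which is 57.9% of the first list and 95.7% of the second.

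The junctions chosen by size of change fell into those used mainly in WT E7107 and those used as much or more in Y36C cells. The largest rise in WT cells was the skipping of EIF4A2 exon 7 (144 bases, chr3:186504291-186504434). Its PSI was 0 to 0.143% in WT DMSO (median 0%), 20.6 to 23.4% in WT E7107 (median 22.7%), 0 to 0.517% in Y36C DMSO (median 0.193%) and 0.772 to 1.57% in Y36C E7107 (median 1.12%). Both rises were called, at 3.38 ± 0.10 and 0.60 ± 0.12 in log odds (SE, n = 12 each, limma, adjusted p = 2.43e-10 and 0.00463), and so was their difference of -2.78 ± 0.13 (SE, n = 24, limma, adjusted p = 1.82e-13). The same order held for EIF4A1 exon 5 (169 bases), which was skipped at 4.94 to 6.32% in WT E7107 and at no more than 0.0666% in any sample of the other groups. In EIF4G1, exon 13 (159 bases) and exon 25 (173 bases) reached 9.90% ± 2.37 and 8.31% ± 1.83 in WT E7107 and 1.26% ± 0.491 and 0.767% ± 0.549 in Y36C E7107 (SD, n = 6 each), from means of at most 0.200% under DMSO. The Y36C call for exon 25 was lost on the PSI scale, without the filter and with the block, and that for exon 13 with the block.

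The opposite order was found in EIF4G2. Exon 3 of this scaffold (66 bases, chr11:10828367-10828432, minus strand) was skipped at 0.520 to 1.29% in WT DMSO (median 1.14%), at 2.40 to 3.54% in WT E7107 (median 2.81%), at 0.392 to 0.936% in Y36C DMSO (median 0.801%) and at 4.89 to 7.40% in Y36C E7107 (median 5.74%). The E7107 groups overlapped neither each other nor their controls. The rise was 0.66 ± 0.12 in WT and 1.45 ± 0.12 in Y36C cells (SE, n = 12 each, limma, adjusted p = 0.000399 and 1.30e-05), and the difference was 0.79 ± 0.14 (SE, n = 24, limma, adjusted p = 9.74e-05). EIF4B exon 7 (138 bases, chr12:53421566-53421703) had 1.44 to 2.69% (median 2.28%) and 5.35 to 7.13% (median 6.21%) in WT cells, and 2.07 to 3.43% (median 2.85%) and 9.13 to 10.6% (median 9.63%) in Y36C cells. EIF4E2 exon 3 (135 bases, chr2:233422594-233422728) had 4.89 to 11.1% (median 6.54%) and 11.1 to 16.4% (median 13.6%) in WT cells, and 3.17 to 11.1% (median 8.33%) and 13.8 to 24.4% (median 20.2%) in Y36C cells. Both exons rose in both genotypes, and the difference between genotypes was not called, at 0.25 ± 0.14 and 0.32 ± 0.26 (SE, n = 24 each, limma, adjusted p = 0.174 and 0.35). For EIF4B it was called on the PSI scale, with 2.82 percentage points more in Y36C cells.

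The sites that bound these exons are shown to set the exon skipped mainly in WT cells, EIF4A2 exon 7, beside 3 whose mean PSI of skipping was higher in Y36C E7107 than in WT E7107. They are written 5′ to 3′ on the strand of the gene, and capitals mark the AG before the exon and the GT after it.
EIF4A2 exon 7, 3′ site, chr3:186504266-186504293, plus strand: tacaacataattttctctttttaAGgtt
EIF4A2 exon 7, 5′ site, chr3:186504432-186504440, plus strand: gagGTaact
EIF4B exon 7, 3′ site, chr12:53421541-53421568, plus strand: ggtgttacttgtctgtttcctctAGagt
EIF4B exon 7, 5′ site, chr12:53421701-53421709, plus strand: gagGTaatt
EIF4E2 exon 3, 3′ site, chr2:233422569-233422596, plus strand: ctaacacaccttctttacttcccAGgct
EIF4E2 exon 3, 5′ site, chr2:233422726-233422734, plus strand: tctGTgagt
EIF4G2 exon 3, 3′ site, chr11:10828430-10828457, minus strand: taaacaatttttttcttttaaatAGtgc
EIF4G2 exon 3, 5′ site, chr11:10828361-10828369, minus strand: cagGTgtgg
No branch point was mapped in these data, and the sequences are given as a description only. All 4 of these exons are coding over their whole length, and each is a multiple of 3 bases long. Among the other named skipped exons this also holds for EIF4G1 exon 13. The lengths of EIF4A1 exon 5, EIF4A2 exon 4 and EIF4G1 exon 25 are not multiples of 3.

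**Figure D3:**
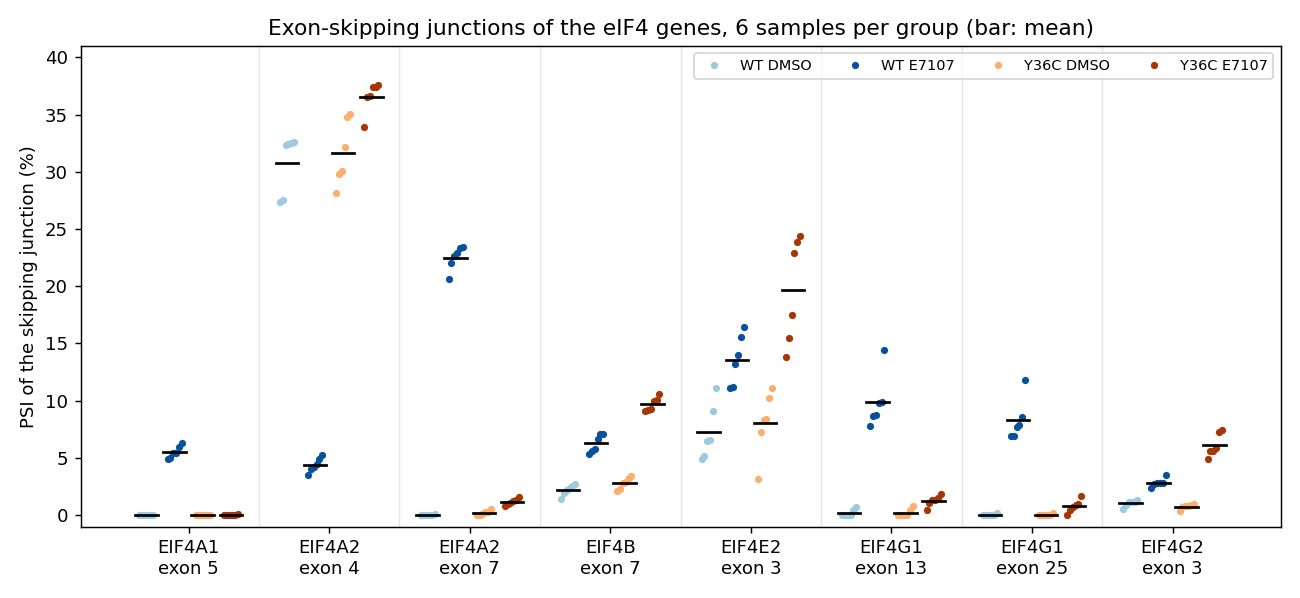
PSI (percent) of the 8 skipping junctions of the eIF4 genes chosen by size of change, with 1 point per sample, 6 samples per group and a bar at the mean. EIF4A1 exon 5, EIF4A2 exon 7 and EIF4G1 exons 13 and 25 are high in WT E7107, while EIF4G2 exon 3 is highest in Y36C E7107, at 4.89 to 7.40%.

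PSI at a splice site counts unspliced reads in its total, so a junction can fall because more reads run across the site. The named junctions were therefore also given as a share of the spliced reads alone. This measure was chosen after the values were seen and was not computed for other junctions. For EIF4A2 exon 4 (140 bases, chr3:186502751-186502890) this changed the picture. Its skipping fell in PSI from 27.4 to 32.6% (median 32.4%) to 3.47 to 5.23% (median 4.33%) in WT cells (log odds -2.10 ± 0.12, SE, n = 12, limma, adjusted p = 1.48e-08), while the boundary at that site went from 12.5 to 86.0%. Of the spliced reads, 35.2% ± 3.00 skipped the exon in WT DMSO and 31.2% ± 2.92 in WT E7107 (SD, n = 6 each, 2-sided exact permutation test, adjusted p = 0.0458). In Y36C cells the share went from 32.0 to 39.7% (median 36.6%) to 42.0 to 44.7%, with no overlap (2-sided exact permutation test, n = 6 each, adjusted p = 0.0030). The PSI of that junction was not called in Y36C cells by limma (adjusted p = 0.205), except on the PSI scale (adjusted p = 0.0194).

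For EIF4A2 exon 7 the same step raised the value. Of the spliced reads at the 5′ site after exon 6, 58.9 to 65.3% skipped exon 7 in WT E7107 (median 62.8%), against at most 0.151% in WT DMSO and 0.843 to 1.70% in Y36C E7107 (median 1.21%). The skipping of EIF4G2 exon 3 kept its order, at 3.13% ± 0.413 in WT E7107 and 6.13% ± 0.998 in Y36C E7107 (SD, n = 6 each). Of 18 comparisons made on this scale over 9 junctions, 17 had an adjusted p of 0.0458 or less by the 2-sided exact permutation test, and the lowest adjusted p, 0.0030, goes with the smallest unadjusted p that 6 against 6 samples allow, 0.00216. The exception was EIF4A1 exon 5 in Y36C cells, at 0.0116% and 0.026% (adjusted p = 0.383). The 9 junctions had been chosen for a called change of PSI between these same samples, so the 17 are no separate support.

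**Figure D4:**
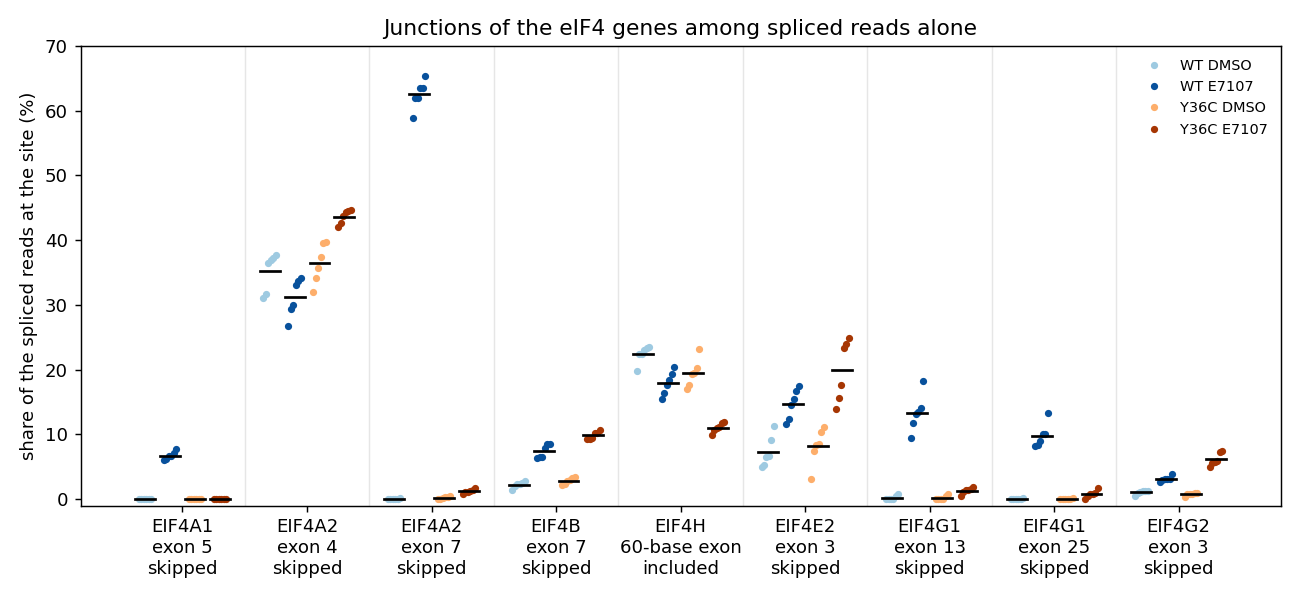
Share of the spliced reads at a site (percent) held by the 8 skipping junctions and by the junction into the 60-base exon of EIF4H, with 1 point per sample, 6 samples per group and a bar at the mean. EIF4A2 exon 7 was skipped in 62.5% of spliced reads in WT E7107, and the 60-base exon of EIF4H was lowest in Y36C E7107, at a mean of 11.1%.

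The named junction of EIF4H led into an exon outside its reference transcript. This 60-base exon within intron 4 (chr7:73604577-73604636) was joined to exon 4 at a PSI of 19.7 to 23.1% in WT DMSO (median 22.5%), 14.7 to 19.9% in WT E7107 (median 17.5%), 16.6 to 22.9% in Y36C DMSO (median 19.1%) and 9.79 to 11.9% in Y36C E7107 (median 10.9%). The Y36C groups were separate and the WT groups overlapped narrowly. Its use fell by 0.61 in log odds in Y36C cells (SE 0.11, n = 12, limma, adjusted p = 0.00203) and by 0.29 in WT cells (SE 0.11, adjusted p = 0.047), with a difference of -0.33 ± 0.13 (SE, n = 24, adjusted p = 0.0475). The WT call and the difference were lost with an offset of 0.1 percentage points and with the block, and at the other end of the exon the difference had an adjusted p of 0.0767. Among spliced reads the share was 22.4, 17.9, 19.5 and 11.1% in the order of the groups above.

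The 7 other named junctions that did not join 2 reference sites all fell in WT cells, but each of them held on average 96.0 to 100% of the spliced reads at its site in every group. EIF4A1 had a 3′ site 2 bases into exon 3, whose junction fell from 22.6% ± 3.08 to 1.14% ± 0.430 in WT cells, while the boundary there went from 77.4 to 98.9%. EIF4A2 had one 3 bases upstream of exon 2, which fell from 72.9% ± 5.43 to 13.7% ± 0.773 (SD, n = 6 each). The junctions of EIF4B, EIF4E, EIF4E2, EIF4G1 and EIF4G2 behaved in the same way, from means of 34.1 to 89.0% down to 2.33 to 54.6%. Samples spread widely in EIF4B, EIF4E, EIF4G1 and EIF4G2, where the SD within a group reached 16.9, 15.7, 19.7 and 17.7 percentage points. In Y36C cells only that of EIF4E2 was called among the 7, and it fell from 86.4% ± 2.46 to 73.7% ± 5.34 (SD, n = 6 each, limma, adjusted p = 0.00445).

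EIF4G1 also has an upstream first exon, and 3 junctions that leave it were looked at after their values were seen. The junction to exon 1 of the reference transcript fell in both genotypes, from 92.8 to 93.6% (median 93.2%) to 78.5 to 85.6% (median 81.7%) in WT cells and from 91.7 to 94.7% (median 93.8%) to 67.5 to 73.3% (median 71.8%) in Y36C cells. The difference was -0.69 ± 0.14 in log odds (SE, n = 24, limma, adjusted p = 0.000438). The junction to exon 2, which leaves exon 1 out, was at 0.405 to 2.36% in both WT groups and went from 1.06 to 2.59% (median 1.83%) to 9.54 to 13.2% (median 11.4%) in Y36C cells (1.58 ± 0.13 in log odds, SE, n = 12, limma, adjusted p = 1.24e-05). The junction to exon 7 rose in both, to 10.8% ± 1.75 in WT E7107 and 7.37% ± 2.49 in Y36C E7107 from 0.799% and 0.833%, and there the difference was not called (adjusted p = 0.142). Exon 1 of EIF4G1 is noncoding.

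Other skipping events chosen after their values were seen also showed both orders in PSI. Their share of spliced reads was not computed, so the order among spliced reads alone may differ. The joint skipping of EIF4A2 exons 4 and 5 was 1.35% ± 0.340 in WT E7107 and 4.44% ± 0.980 in Y36C E7107 (SD, n = 6 each), from means of at most 0.0926% under DMSO, and the difference was called (0.83 ± 0.15 in log odds, SE, n = 24, limma, adjusted p = 7.44e-05). At the 5′ site after exon 3, where this junction starts, mean boundary PSI was 86.0% in WT E7107 and 16.2% in Y36C E7107. EIF4A1 exon 10 (80 bases) reached 2.33% ± 0.302 and 2.94% ± 0.186, with a difference of 0.37 ± 0.12 (SE, n = 24, limma, adjusted p = 0.0157). EIF4A3 exon 5 (63 bases) reached 3.46% ± 1.24 and 1.72% ± 0.336, with a difference of -0.61 ± 0.18 (adjusted p = 0.00684). In EIF4A2 intron 10, the junction into an exon of 107 or 111 bases fell from 36.1% ± 1.97 to 6.73% ± 0.889 in WT cells and from 38.2% ± 0.967 to 29.0% ± 3.38 in Y36C cells (SD, n = 6 each). That is the intron whose 3′ end fell in Y36C cells. Intron means of EIF4A2 were at least 48.6% in WT E7107 and at most 30.4% in Y36C E7107. The fall in PSI therefore does not give the use of the exon among spliced reads.

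Features of the introns that the choice of genes did not use were compared with the size of the change. Over 128 introns of the 10 genes with both ends measured, Spearman's rho between intron length and the change of PSI in WT cells was -0.34, and it was -0.0848 over 92745 reference introns of all genes. Introns of at least 2000 bases had a median change of 4.16 percentage points, those of at least 500 but under 2000 bases 13.6, and those under 500 bases 12.2. Many of the longest introns belong to EIF4G3, and length and gene cannot be told apart. The rho for GC content was 0.19 in the eIF4 genes and -0.0240 in all introns. These are descriptions over introns that share genes and libraries.

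**Figure D5:**
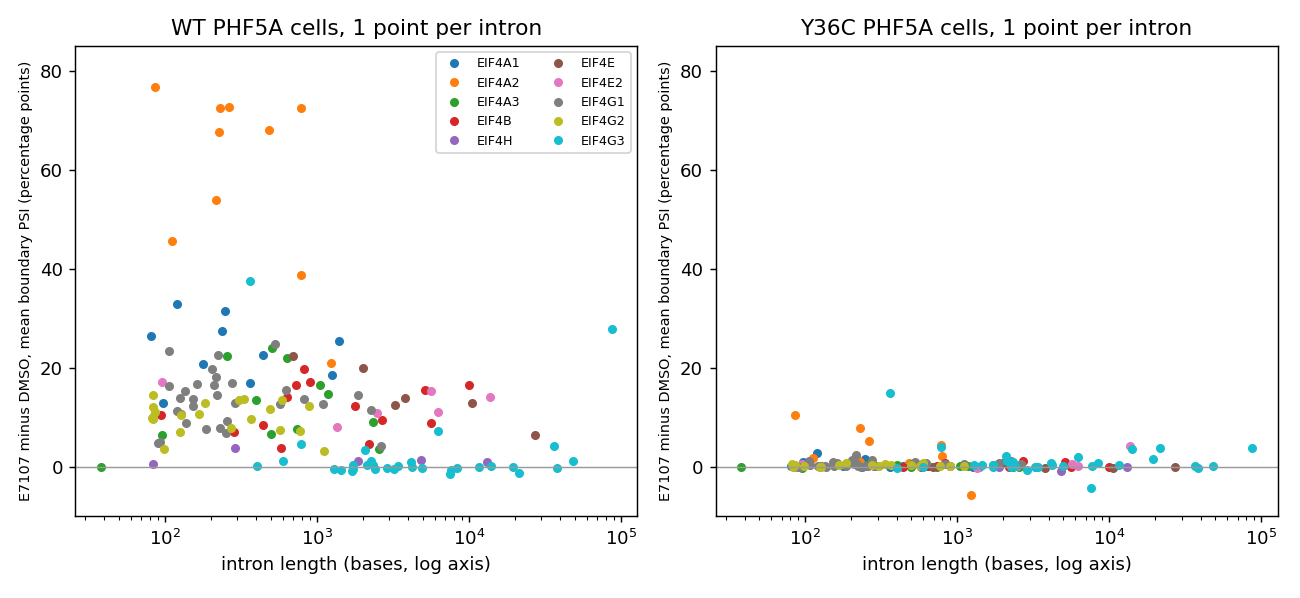
Change of boundary PSI (E7107 minus DMSO, percentage points) against intron length (bases, log axis) for the introns of the eIF4 genes, with 1 point per intron coloured by gene. In WT cells the introns of EIF4A2 stand highest, up to 76.6 percentage points, and most introns of EIF4G3 lie near 0, while in Y36C cells no intron exceeds 14.9 percentage points.

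The 3′ boundary changed more than the 5′ boundary in 84 of the 128 introns (65.6%), and in 50.3% of all reference introns. Of the measured introns of the eIF4 genes, 9 hold a small nucleolar RNA, a class of noncoding RNA that is released from spliced introns. Their median change in WT cells was 54.0 percentage points, against 10.7 in the 138 measured introns without one. As 5 of the 9 are introns of EIF4A2, where introns without such an RNA also changed by 20.9 to 76.6 percentage points, the gene and the small RNA cannot be told apart. The introns of EIF4A1 with SNORA48 and SNORD10 were at 23.1 and 17.5% in WT E7107, within the range of its other introns. EIF4G1 intron 19, with SNORD66, changed by 16.6 percentage points, and EIF4G2 intron 14, with SNORD97, by 7.46, where the median intron of these genes changed by 13.7 and 10.5.

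The pathway around the eIF4 genes was followed in 2 further lists of genes. Of 14 regulators and partners, 11 rose in gene mean retention in WT cells and 8 in Y36C cells, and 0 fell in either, where 72.7% of all genes rose in WT and 50% in Y36C cells. The median change in WT cells was 0.63 in log odds, against 2.01 in the 10 eIF4 genes and 1.05 in all genes tested. LARP1, which binds the cap of mRNAs for ribosomal proteins, went from 1.93 to 38.0% and DDX3X, an RNA helicase, from 1.04 to 33.3%. PDCD4, an inhibitor of EIF4A1, went from 1.36 to 2.07% and EIF4EBP1, an inhibitor of EIF4E, from 1.42 to 1.75%, and neither was called (limma, adjusted p = 0.282 and 0.0695). In the same list EIF4EBP2 rose from 0.825 to 3.04% and PAIP2 from 0.961 to 2.03%, and both were called (limma, adjusted p = 0.000522 and 0.000506). Of 30 other initiation factors, 27 rose and 2 fell in WT cells (median 1.14), and 19 rose and 1 fell in Y36C cells, where 7.93% and 1.14% of all genes fell. In log odds the largest rise of this list was that of EIF3A, a core subunit of eIF3, at 3.46 (0.605 to 33.4%), while EIF5, which stimulates GTP hydrolysis by eIF2, reached 45.2% from 1.86%. The factors that fell in WT cells were EIF2D, from 3.70 to 0.991%, and EIF3K, from 1.26 to 0.799%. The genes whose 4 group means lay nearest to those of EIF4A1 were TBK1, GPAM and RTF1, at distances of 0.230, 0.363 and 0.395 percentage points over the 24 samples.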

How the data were processed

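The authors aligned poly(A) RNA reads of the 24 samples to hg19 with STAR (version not given in the sources used here) and derived from its junction counts the deposited values, which are percentages: each is the percent of the reads at a splice site that a junction or boundary holds. These percent values were used as deposited, and sites without reads in a sample were left missing. Left out were 6433 rows. Samples were grouped by their labels.

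Introns and exons came from 1 GENCODE reference transcript per gene on GRCh37. A row entered a fit if no sample in it lacked reads there and if its PSI exceeded 0 in at least 6 of 12 samples (12 of 24 for the genotype difference). PSI and its complement to 100 were each raised by 1 percentage point, and their natural-log odds were fitted with limma 3.58.1 in R 4.3.3. P-values were adjusted by Benjamini-Hochberg over all fitted rows of the whole table. Gene means were fitted separately and adjusted over all genes fitted. Gene means used at least 3 boundary rows at sites with reads in all 24 samples, of which 207244 existed. The fit was first tested on simulated data. Shares of spliced reads were compared by 2-sided exact permutation tests.

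The members, gene lists and tests were chosen with earlier results of these data known. Named for each gene were the intron that rose most in WT and in Y36C cells, up to 2 skipping junctions and 1 other junction with the largest called change of at least 5 percentage points, and the 3 genes nearest to EIF4A1 over the 4 group means. Alternatives were an offset of 0.1 percentage points, PSI itself, other filters, a replicate block, 24 samples in 1 fit, a change of at least 10 percentage points, all GENCODE introns and the median over boundaries. MANE Select transcripts and spliced shares were added after the data were seen. Python 3.11.15 was used for the tables.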

Additional observations from a re-analysis of the deposited data

Results flagged for a closer look

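Single samples that stood apart within their group of 6 were found in 14 of 164 groups tested by Dixon's criterion, which chance meets in about 1 in 20 groups. In retention these were replicate 4 of Y36C DMSO for EIF4A3 (gene mean 4.83%), replicate 5 of Y36C E7107 for EIF4B (gene mean 1.26%), replicate 5 of WT DMSO for EIF4A2 intron 2 (11.0%), replicate 1 of WT DMSO for EIF4H intron 5 (1.00%) and replicate 5 of Y36C DMSO for EIF4E2 intron 6 (9.96%). In EIF4A1 and EIF4A2 junctions they were replicate 2 of Y36C E7107 for skipping of EIF4A1 exon 5 (PSI 0.0666%), replicate 2 of WT E7107 for the 3′ site within EIF4A1 exon 3 (0.297%), replicate 5 of Y36C E7107 for skipping of EIF4A2 exon 4 (33.9%) and replicate 1 of WT DMSO for skipping of EIF4A2 exon 7 (0.143%). Replicate 6 of WT DMSO stood apart for the 60-base exon of EIF4H (19.7%). In EIF4G1, replicate 6 of WT E7107 was high for exon 13 skipping (14.5%), and for exon 25 skipping the samples were replicate 1 of WT DMSO (0.180%), replicate 5 of WT E7107 (11.8%) and replicate 2 of Y36C DMSO (0.167%), where the other DMSO samples were at 0.

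The E7107 effect differed between genotypes, by the interaction term in limma, for the mean retention of all 10 genes. Beside the 5 values given in the report, the Y36C minus WT difference in log odds was -1.29 in EIF4A3, -1.80 in EIF4B, -1.67 in EIF4E2, -1.93 in EIF4G1 and -1.85 in EIF4G2, while the 5 were -2.48 in EIF4A1, -2.51 in EIF4A2, -2.45 in EIF4E, -0.82 in EIF4H and -0.25 in EIF4G3.

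The same term was called for 14 of the named junctions. Among skipping junctions it was -1.90 for EIF4A1 exon 5, 2.31 for EIF4A2 exon 4, -2.78 for EIF4A2 exon 7, -1.67 and -1.77 for EIF4G1 exons 13 and 25, and 0.79 for EIF4G2 exon 3. Among the other junctions it was 2.71 ± 0.22 in EIF4A1, 2.83 ± 0.21 in EIF4A2, -0.33 ± 0.13 in EIF4H and 0.86 ± 0.21 in EIF4E2 (SE, n = 24). It was less precise in EIF4B at 2.98 ± 0.76, EIF4E at 6.01 ± 1.17, EIF4G1 at 2.55 ± 0.81 and EIF4G2 at 2.97 ± 0.51. The SD of PSI within a group reached 16.9, 15.7, 19.7 and 17.7 percentage points in these last genes, in that order. The depth behind these values is unknown, so the size of their differences is uncertain. Apart from that of EIF4H, the other junctions held nearly all spliced reads of their site in each group, so their PSI moves with the boundary reads there. The value of EIF4G1 was lost with an offset of 0.1 percentage points (adjusted p = 0.118).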

How the results depend on the processing

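Of the counts and summaries recomputed under the alternatives, 141 stayed within 1.5 times the value in the report and 23 did not. For single genes and junctions 570 kept their side of the threshold, 22 lost the call and 4 gained one. Among results called in the main fit or in the alternative, 0 changed direction, and direction was not compared where neither was called. The cause of these shifts was not tested, except that a required change of 10 percentage points removes small changes by construction. In WT cells the 77 skipping rows that rose became 50 on the PSI scale and 4 with at least 10 percentage points, and the 4 that fell became 2 with the replicate block, 8 with all 24 samples in 1 fit, 2 with at least 10 percentage points and 29 over all GENCODE introns. In Y36C cells the 28 boundaries that rose became 12 with the block and 1 with at least 10 percentage points. The 2 boundaries that fell became 1 with an offset of 0.1 percentage points, 0 with the block, 1 with 24 samples and 0 with at least 10 percentage points. The 27 skipping rows that rose in Y36C cells became 2 with at least 10 percentage points, and the 0 that fell became 2 with the smaller offset and 3 over all GENCODE introns. The 8 gene means called in Y36C cells became 3 over all GENCODE introns and 3 of 9 genes with the median. For the genotype difference, boundaries with a larger rise went from 0 to 1 without the filter. Skipping rows with a larger change went from 17 to 2 with at least 10 percentage points and to 47 over all GENCODE introns, and those with a smaller one from 21 to 58 with the filter on 1 group, 67 without a filter and 4 with at least 10 percentage points.

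Replicate numbers did not pair the samples: over 36 pairs of same-numbered samples the correlation of deviations from the group means lay between -0.00696 and 0.00781. The block left 6 of the 8 gene means called in Y36C cells. Depth per site is unknown, so PSI near 0 in EIF4G3 and EIF4E2 cannot be told from too few reads.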

Other observations

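Of the genes of the wider pathway, 4 other initiation factors and 1 partner had a positive Y36C minus WT difference in the E7107 effect past the threshold of limma. EIF2D, which places initiator tRNA without eIF2, fell from 3.70 to 0.991% in WT cells and rose from 2.79 to 4.55% in Y36C cells, a difference of 1.29 in log odds. EIF2B3 and EIF2B5, subunits of the exchange factor of eIF2, had differences of 0.33 and 0.28 (adjusted p = 0.0191 and 0.000131), CYFIP1, a partner of EIF4E, 0.28 (adjusted p = 0.00102), and EIF3K, a subunit of eIF3, 0.22 (adjusted p = 0.0260). In EIF4A2 an unannotated 5′ site within intron 2, chosen after its values were seen, was joined to exon 5 at 0.347% under DMSO and 6.29% under E7107 in WT cells and at 0.447% and 3.90% in Y36C cells. The same site was joined to exon 6 at 0.0251% and 10.6% in WT cells and at 0 and 0.545% in Y36C cells.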
